A study of Mus musculus with 6 samples.

Results

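The genes described here are 30 regulators of programmed cell death and of the p53 response, chosen by symbol from the BCL2 family, the caspases, the necroptosis and pyroptosis machinery and the p53 pathway. All 30 symbols were found among the 24346 symbols measured in each library. The 6 libraries are RNA-seq of whole retinas from mice at postnatal day 12, with 3 control libraries of the genotype Panky+/-;Panky-like+/-;Nrl-/- and 3 triple-deficient libraries of the genotype Panky-/-;Panky-like-/-;Nrl-/-. Every mouse therefore lacked Nrl, which is needed for photoreceptors to become rods, and the photoreceptors of both groups are mostly cone-like. The controls are heterozygous for both targeted genes and are not wild type. Panky is Ankrd33, a photoreceptor ankyrin repeat protein, and Panky-like is taken to be its paralog Ankrd33b, which the labels do not state. The title of the series speaks of cone integrity and survival, and the comparison asks whether transcripts of the death machinery differ between the genotypes at this age.

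In the mitochondrial pathway of apoptosis, BH3-only proteins sense damage and act on the BCL2 family. Anti-apoptotic members such as Bcl2, Bcl2l1 and Mcl1 hold back the effectors Bax and Bak1, which open the outer mitochondrial membrane, and the released cytochrome c assembles Apaf1 and Casp9 into the apoptosome. Death receptors act through Casp8, and where that protease is inactive, Ripk1, Ripk3 and Mlkl can carry out necroptosis. Pyroptosis runs from inflammasome sensors through Casp1 or Casp4 to the pore protein Gsdmd. The p53 protein, encoded by Trp53, induces several of these genes together with cell cycle and DNA damage genes, and Mdm2 marks it for degradation. In the retina the photoreceptors are postmitotic neurons, and much of this machinery acts in them by activation of proteins already made, which RNA levels do not measure.

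Values are FPKM (fragments scaled to transcript length and library size), which allow levels of different genes to be compared per length. As read from the spacing of low values, the libraries held about 18100000 to 27100000 fragments, with triple-deficient 3 the smallest. Both targeted genes fell, Ankrd33 less than Ankrd33b. Ankrd33b was at 33.8 ± 1.45 FPKM in the controls against 1.502 ± 0.265 FPKM in triple-deficient libraries, and Ankrd33 at 106 ± 2.97 and 55.6 ± 4.66 FPKM (SD, n = 3 per group; limma adjusted p = 4.56e-07 and 0.00274). Cone markers summed to 5343 to 5496 FPKM in the controls against 4922 to 5470 FPKM in triple-deficient libraries, and none of the 9 was at 0. Triple-deficient 3 stood apart in base composition. Its deviations from the gene means correlated with transcript GC content at Spearman -0.59 across 14210 genes, which are not independent, against 0.065 to 0.30 in the other 5 libraries. The changes of Bax, Bbc3, Bmf, Phlda3 and Endog are given below with and without it.

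None of the 30 genes passed the threshold of the test between genotypes. The test was limma on log2(FPKM + 1), with Benjamini-Hochberg adjustment across the 14325 genes whose mean over the 6 libraries was at least 0.5 FPKM, and a threshold of 0.05. Of the 30, 22 entered the test and 8 lay below the filter. Over all genes 4 passed, 0.0279% of those tested, and the smallest adjusted p among the 22 was 0.861, that of Phlda3. The labels do not say whether each library is a separate animal, so the p-values cover the spread between these samples, which may be technical.

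Most of these genes were well measured. Over the 6 libraries 7 of them averaged at least 20 FPKM, 9 between 5 and 20 FPKM, 6 between 0.5 and 5 FPKM, and 8 less than 0.5 FPKM. The order of the means ran from Bax at 53.05 FPKM through Bcl2l1 at 46.2, Mcl1 at 39.6, Parp1 at 35.2, Ccng1 at 32.8, Mdm2 at 25.8 and Trp53 at 20.6 FPKM down to Casp4 at 0.0765 and Nlrp3 at 0.0621 FPKM. The 8 genes under 0.5 FPKM were Pmaip1, Mlkl, Casp1, Eda2r, Ripk3, Fas, Casp4 and Nlrp3, which span the apoptotic, p53, necroptosis and inflammasome genes.

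**Figure D1:**
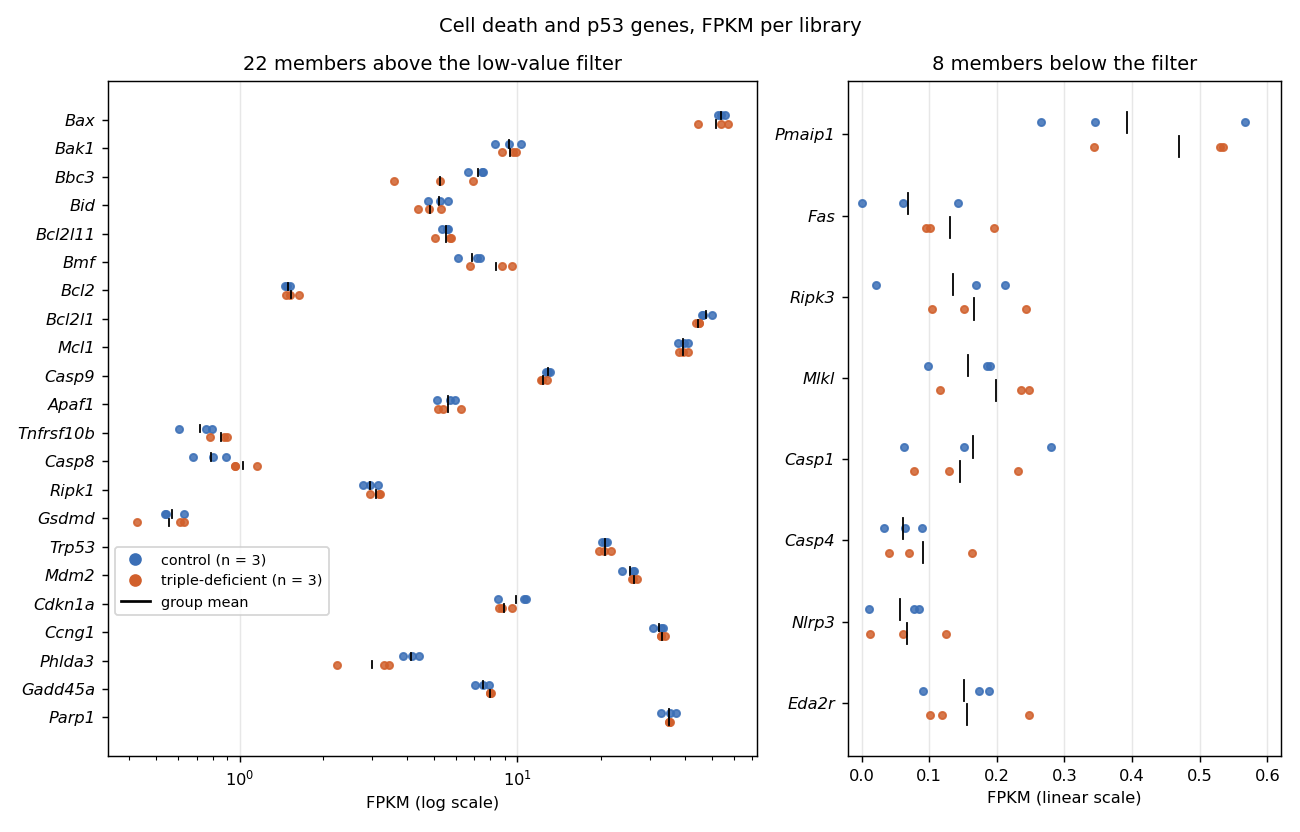
FPKM of the 30 genes in each of the 6 libraries (points; blue, 3 controls; orange, 3 triple-deficient), with group means as black ticks. The left panel has a log axis and holds the 22 genes above the filter, from Bax near 53.05 FPKM to Gsdmd near 0.564 FPKM; the right panel has a linear axis and holds the 8 genes below it, whose groups all overlap.

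The effectors came first in level. Bax, on chromosome 7 (45461695 to 45466903), was at 55.8, 52.7 and 54.1 FPKM in control libraries 1, 2 and 3 and at 53.9, 57.1 and 44.6 FPKM in triple-deficient libraries 1, 2 and 3. The groups overlapped, and only triple-deficient 3 lay below all controls. Its log2 change was -0.07 (95% interval -0.26 to 0.13, limma adjusted p = 0.959), and it was 0.03 without triple-deficient 3, one of the 4 of 18 alternative analyses in which its sign changed. Bak1, the second effector, was at 10.3, 8.34 and 9.35 FPKM in the controls against 9.62, 9.88 and 8.80 FPKM in triple-deficient libraries. Per length, Bax was 5.07 to 6.32 times as abundant as Bak1 in every library.

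Among the anti-apoptotic genes Bcl2l1, which encodes Bcl-xL, and Mcl1 were abundant, and Bcl2 was scarce. Bcl2l1 was at 46.1, 46.5 and 50.4 FPKM in the controls against 45.1, 44.0 and 45.2 FPKM in triple-deficient libraries. The triple-deficient values were all under the lowest control value, by a small margin, with a log2 change of -0.09 (95% interval -0.20 to 0.02, limma adjusted p = 0.946). The change of Bcl2l1 was -0.05 without control 3. Mcl1, a short-lived protein of the same family, was at 37.9, 39.7 and 41.1 FPKM in the controls against 39.4, 38.3 and 41.1 FPKM in triple-deficient libraries, with a change of 0.002. Bcl2 was at 1.49 ± 0.0304 and 1.54 ± 0.0835 FPKM (SD, n = 3), so that Bcl2l1 exceeded it 27.0 to 34.4 times per length.

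The balance between these genes was taken as ratios within each library. The ratio of Bcl2l1 to Bax was 0.827, 0.883 and 0.930 in controls and 0.836, 0.770 and 1.01 in triple-deficient libraries. The summed FPKM of Bcl2, Bcl2l1 and Mcl1 was 1.40 ± 0.0908 times that of Bax and Bak1 in controls and 1.42 ± 0.204 times in triple-deficient libraries (SD, n = 3). Both ratios overlapped between the groups, and the highest of each was that of triple-deficient 3, the library with the lowest Bax.

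Among the 4 tested BH3-only genes, Bbc3 had the lowest change and Bmf the highest. Bbc3, which encodes the p53 target PUMA, lies on chromosome 7 (16308398 to 16318334). It was at 7.55, 6.66 and 7.47 FPKM in the controls against 6.92, 5.27 and 3.58 FPKM in triple-deficient libraries. Triple-deficient 1 lay inside the range of the controls and the other 2 below it. The mean was 72.8% of the control mean, a log2 change of -0.43 (SE 0.172, 95% interval -0.82 to -0.03, limma unadjusted p = 0.0371, adjusted p = 0.930).

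Bmf, a BH3-only protein linked to the cytoskeleton and to loss of cell attachment, lay higher on average. It was at 7.31, 6.10 and 7.18 FPKM in the controls against 6.76, 8.77 and 9.60 FPKM in triple-deficient libraries, with triple-deficient 1 inside the control range and the other 2 above it (log2 change 0.25, SE 0.119, limma adjusted p = 0.943). The change was 0.15 without triple-deficient 3 and 0.38 without triple-deficient 1. Bid, which carries the death receptor signal to the mitochondria, was at 5.23 ± 0.437 and 4.84 ± 0.445 FPKM, and Bcl2l11, which encodes Bim, at 5.52 ± 0.151 and 5.52 ± 0.394 FPKM (SD, n = 3). Pmaip1, which encodes the p53 target Noxa, lay below the filter. Its values were 0.266, 0.345 and 0.567 FPKM in the controls against 0.344, 0.529 and 0.535 FPKM in triple-deficient libraries, which overlap.

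The 5 BH3-only genes together amounted to 0.277 to 0.298 of the summed anti-apoptotic FPKM in the controls against 0.277 to 0.291 in triple-deficient libraries. In triple-deficient 2 and 3, the libraries with the lower Bbc3 and the higher Bmf, it was 0.287 and 0.277, and the groups overlapped.

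**Figure D2:**
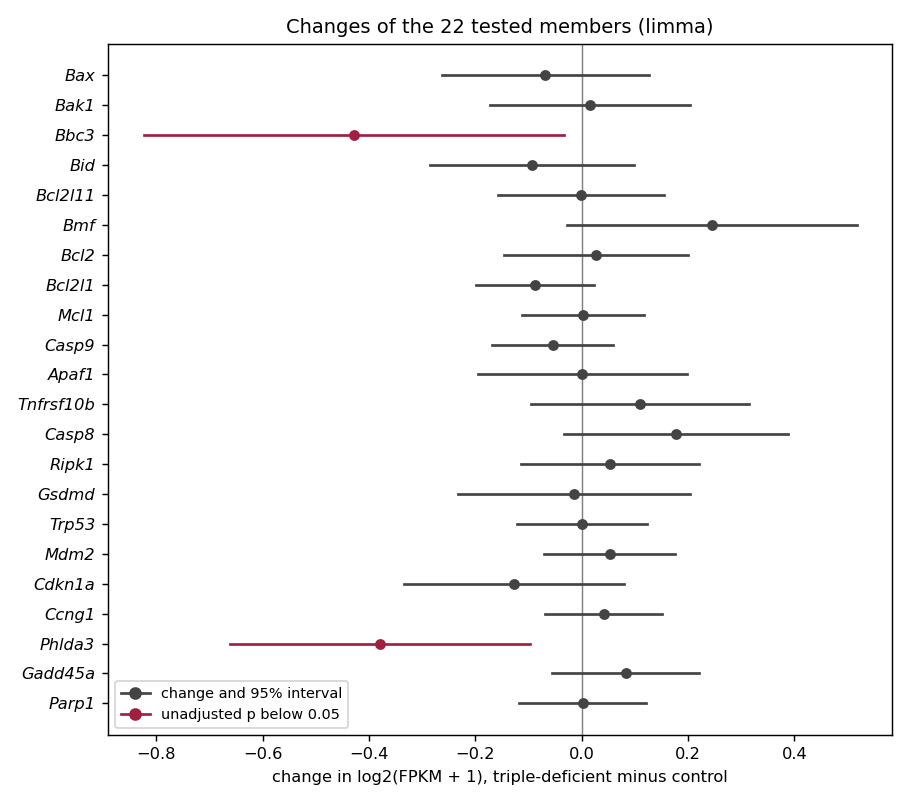
Change in log2(FPKM + 1), triple-deficient minus control, of the 22 tested genes (points) with 95% confidence intervals from limma. The intervals of Bbc3 and Phlda3, in red, lie below 0, and the other 20 cross it.

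Downstream of the mitochondria, the groups overlapped for both apoptosome genes. Casp9, the initiator protease of the apoptosome, was at 12.9 ± 0.184 and 12.4 ± 0.325 FPKM, and Apaf1, its scaffold, at 5.61 ± 0.446 and 5.63 ± 0.590 FPKM (SD, n = 3). Their log2 changes were -0.05 and 0.001, and both intervals lay between -0.20 and 0.20.

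The death receptors Tnfrsf10b and Fas and the protease Casp8 were scarce. Casp8, on chromosome 1 (58795233 to 58847503), was at 0.681, 0.803 and 0.890 FPKM in the controls against 1.16, 0.959 and 0.960 FPKM in triple-deficient libraries. All 3 triple-deficient libraries lay above all 3 controls, and the mean was 129.7% of the control mean. The log2 change of 0.18 (SE 0.0916, 95% interval -0.03 to 0.39) had a limma unadjusted p of 0.0871 and an adjusted p of 0.943, and it rests on an estimated 39.6 to 81.4 fragments per library.

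Tnfrsf10b, the mouse TRAIL receptor, was at 0.793, 0.606 and 0.760 FPKM in the controls against 0.782, 0.901 and 0.881 FPKM in triple-deficient libraries, and the groups overlapped. Fas, the receptor of Fas ligand, was listed at 0, 0.143 and 0.0618 FPKM in the controls against 0.0956, 0.101 and 0.196 FPKM in triple-deficient libraries. That is at most an estimated 5.79 fragments per library, and no difference could be detected at this depth.

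The necroptosis genes ended at a low level. Ripk1, a kinase of both survival and death signalling, was at 2.96 ± 0.186 and 3.11 ± 0.146 FPKM (SD, n = 3; log2 change 0.05, 95% interval -0.11 to 0.22). Ripk3, its necroptotic partner, was at 0.169, 0.0221 and 0.212 FPKM in the controls against 0.243, 0.104 and 0.152 FPKM in triple-deficient libraries. Mlkl, the executioner, was at 0.190, 0.0981 and 0.185 FPKM and at 0.247, 0.115 and 0.235 FPKM. Both sets of groups overlapped, on an estimated 1.08 to 13.4 fragments per gene and library.

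Of the pyroptosis genes only Gsdmd entered the test. It was at 0.543, 0.538 and 0.630 FPKM in the controls against 0.429, 0.632 and 0.609 FPKM in triple-deficient libraries, with a log2 change of -0.01. Gsdmd lies on chromosome 15 (75862144 to 75867408), as do Ankrd33 and Ankrd33b. Casp1, the inflammasome protease, was at 0.0621 to 0.281 FPKM in the controls against 0.0770 to 0.231 FPKM in triple-deficient libraries.

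Casp4, which senses bacterial lipopolysaccharide inside cells, was at 0.0328 to 0.0889 FPKM and 0.0407 to 0.163 FPKM, and the inflammasome sensor Nlrp3 at 0.0104 to 0.0853 FPKM and 0.0132 to 0.125 FPKM, in the same order of groups. These 3 genes were present at an estimated 0.964 to 10.6 fragments per library, so that only very large differences would show. Inflammasome genes are typical of myeloid cells. The 11 microglial markers summed to 64.1 to 75.1 FPKM in the controls against 64.7 to 68.5 FPKM in triple-deficient libraries, with none at 0. In whole retina, fewer cells of a type and less RNA per cell cannot be told apart.

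For p53 itself and its regulator the groups overlapped. Trp53 was at 20.1, 20.7 and 21.0 FPKM in the controls against 20.5, 21.8 and 19.6 FPKM in triple-deficient libraries, a log2 change of 0.001 with an interval of -0.12 to 0.12. Mdm2, the ubiquitin ligase that p53 itself induces, was at 26.0, 23.7 and 26.3 FPKM and at 26.1, 25.8 and 27.0 FPKM. Their ratio was 1.23 ± 0.0782 in controls and 1.28 ± 0.0984 in triple-deficient libraries (SD, n = 3).

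Of the 4 tested p53 targets listed here under that role, 2 changes lay above 0 and 2 below. Ccng1, which encodes cyclin G1, was at 32.3 ± 1.35 and 33.3 ± 0.630 FPKM, and Cdkn1a, the cell cycle inhibitor p21, at 10.7, 8.49 and 10.6 FPKM in the controls against 9.56, 8.56 and 8.77 FPKM in triple-deficient libraries (log2 change -0.13, 95% interval -0.33 to 0.08). The change of Cdkn1a was -0.23 without control 2 (limma unadjusted p = 0.0159, adjusted p = 0.969), -0.07 without control 1 and -0.08 without control 3. Gadd45a, a DNA damage response gene, was at 7.93, 7.06 and 7.53 FPKM in the controls against 7.96, 8.04 and 7.998 FPKM in triple-deficient libraries. All 3 triple-deficient values of Gadd45a lay above all controls, the nearest pair at 7.96 and 7.93 FPKM, with a log2 change of 0.08 (limma adjusted p = 0.948).

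Phlda3, a p53-induced inhibitor of Akt signalling, had the smallest p of the 22. It lies on chromosome 1 (135766085 to 135769134) and was at 4.41, 4.16 and 3.89 FPKM in the controls against 3.31, 3.45 and 2.23 FPKM in triple-deficient libraries. Every triple-deficient value was under the lowest control value, and the mean was 72.2% of the control mean. The log2 change was -0.38 (SE 0.123, 95% interval -0.66 to -0.10, limma unadjusted p = 0.0147, adjusted p = 0.861). Eda2r, an X-linked receptor of the TNF receptor family that p53 induces, lay below the filter at 0.0902 to 0.189 FPKM in the controls against 0.102 to 0.247 FPKM in triple-deficient libraries.

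Parp1, which binds DNA breaks and is cleaved by caspases in apoptosis, was at 35.6, 32.99 and 37.1 FPKM in the controls against 35.4, 35.1 and 35.2 FPKM in triple-deficient libraries. Its log2 change was 0.002, with an interval of -0.12 to 0.12.

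**Figure D3:**
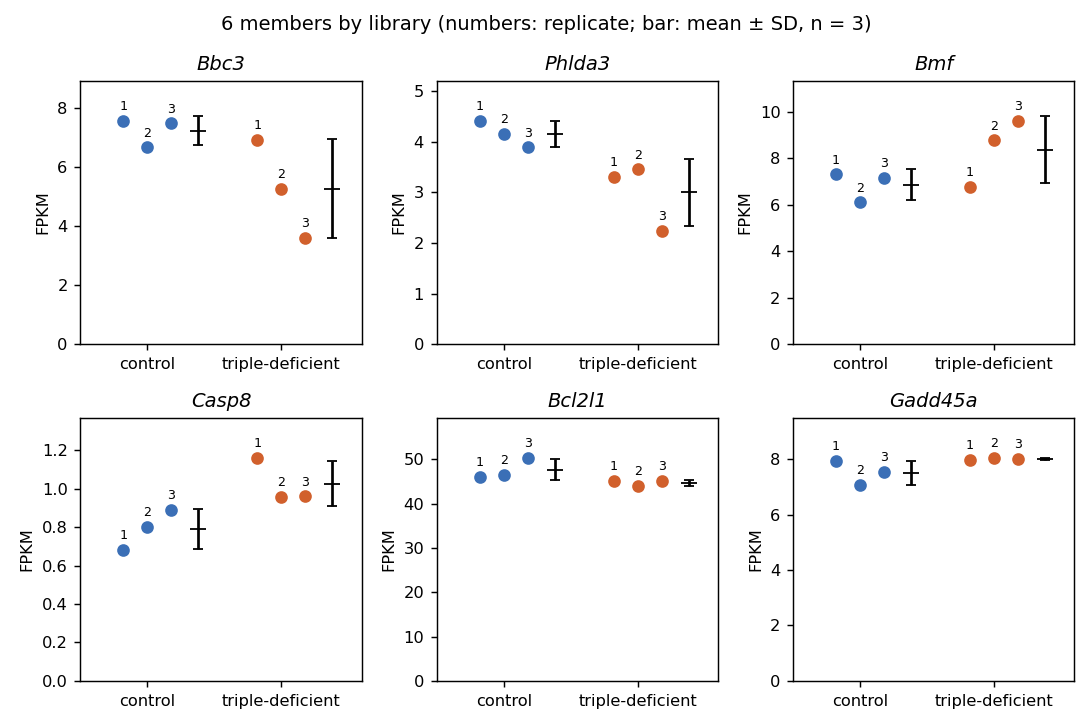
FPKM of Bbc3, Phlda3, Bmf, Casp8, Bcl2l1 and Gadd45a in each library, numbered by replicate, with mean ± SD (n = 3) as black bars and every axis starting at 0. Triple-deficient 3 is the lowest library for Bbc3 (3.58 FPKM) and Phlda3 (2.23 FPKM) and the highest for Bmf (9.60 FPKM).

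The counts were set against those over all genes. At a limma unadjusted p below 0.05, 2 of the 22 genes were lower in triple-deficient libraries (Bbc3 and Phlda3) and none was higher, where 3.33% of all genes tested were lower and 1.76% higher. Groups did not overlap for 2 genes that were higher (Casp8 and Gadd45a) and 2 that were lower (Bcl2l1 and Phlda3), where 4.86% of all genes were higher and 5.64% lower. The median log2 change was 0.002 over the 22 genes and 0.003 over all genes, and 13 of the 22 changes lay above 0. For 16 of the 22 genes the 95% interval lay between -0.3 and 0.3, and for 19 between -0.4 and 0.4. Bbc3, Phlda3 and Bmf were the exceptions to the latter. These limits hold on the scale of log2(FPKM + 1), which narrows the intervals of low genes. With 0.1 added in place of 1, the change of Casp8 was 0.34 (SE 0.181) against 0.18 (SE 0.0916). The SE of Gsdmd was then 0.234 against 0.0950.

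Bbc3 and Phlda3 share a high GC content. The longest annotated transcript has 65.2% GC for Bbc3 and 62.6% for Phlda3, and the only other gene of the 22 above 60% is Bax, with 63.5%. Over all genes, the 670 tested genes with at least 60% GC had a median log2 change of -0.11, and 16.9% of them were lower at an unadjusted p below 0.05. Over the 22 genes, log2 change and GC content correlated at Spearman -0.62, and over 14210 genes at -0.36. These are descriptions across genes that share the same 6 libraries.

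Without triple-deficient 3 the correlation was -0.34 over the 22 genes and -0.02 over all genes. The log2 change of Bbc3 was then -0.22 (limma unadjusted p = 0.0805) and that of Phlda3 -0.23 (limma unadjusted p = 0.0191), against -0.43 and -0.38 with all 6 libraries. After each library's trend on GC content was removed, the changes were -0.25 for both genes (limma unadjusted p = 0.0509 for Bbc3 and 0.0149 for Phlda3). Both genes stayed below 0 in all 18 alternative analyses. The summed markers of some other cells did not overlap between the groups. The 5 of the lens were scarce, at 0.531 to 7.75 FPKM in the controls against 0.437 to 0.520 FPKM in triple-deficient libraries. Of these, Cryaa was at 4.61 FPKM in control 1 and at most 0.129 FPKM in any other library. The 6 of the pigment epithelium summed to 21.6 to 32.6 FPKM in the controls against 13.5 to 20.6 FPKM in triple-deficient libraries, with none at 0. Most of this sum was Ttr, with means of 15.8 and 8.81 FPKM. Ttr, Tyrp1 and Pmel did not overlap between the groups, whereas Rpe65, Best1 and Rgr did. Rpe65 and Best1 were highest in triple-deficient 3. The 6 Müller glia markers summed to 1615 to 1654 FPKM and 1434 to 1570 FPKM, also with none at 0. The gap lay mainly in Apoe, with means of 599 and 499 FPKM. Rlbp1 was lower too, with means of 244 and 224 FPKM and overlapping groups. Glul had means of 661 and 661 FPKM, and Slc1a3, Sox9 and Aqp4 had higher means in triple-deficient libraries. The part of these cells in the lower Bbc3 and Phlda3 values was not tested.

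**Figure D4:**
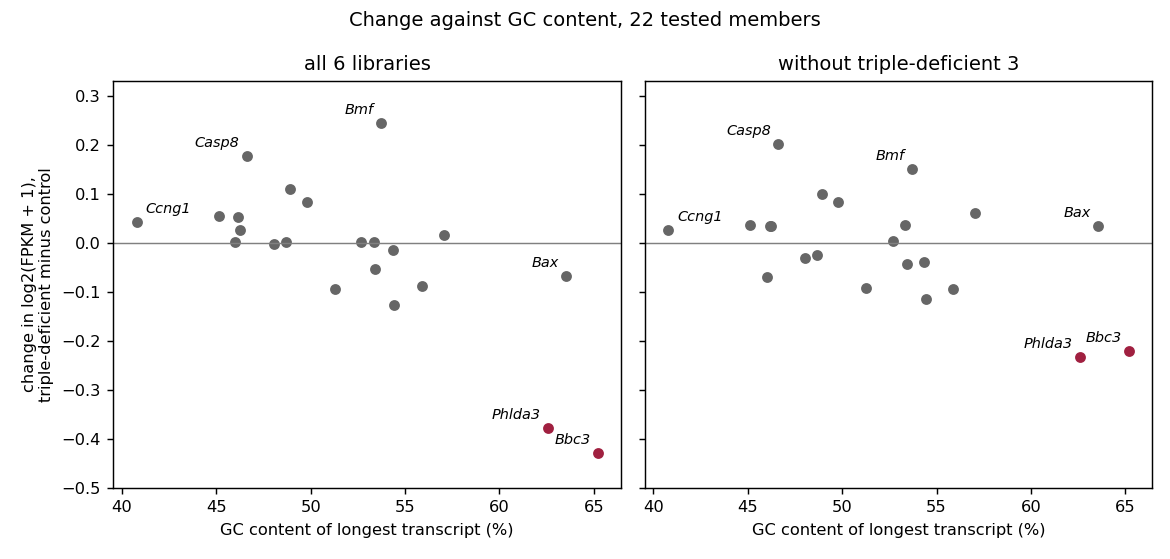
Change in log2(FPKM + 1), triple-deficient minus control, against the GC content of the longest transcript for the 22 tested genes, with all 6 libraries (left) and without triple-deficient 3 (right). Bbc3 and Phlda3, in red, lie lowest at -0.43 and -0.38 on the left and at -0.22 and -0.23 on the right.

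The promoters of Bbc3 and Phlda3 are shown because these 2 known p53 targets had the lowest p of the 22 genes, and that of Cdkn1a because it is the classical p53 target. Each window covers the 250 bases before an annotated start on the plus strand, in RefSeq's GRCm38.p6, which is the mm10 build. The windows are chr1:135765835-135766084 for Phlda3, chr7:16309333-16309582 for Bbc3 (the most upstream of 3) and chr17:29090729-29090978 for Cdkn1a (the upstream of 2). That of Bbc3 lies in an intron of a longer GENCODE transcript. The RefSeq span of Bbc3 begins earlier, at 16308398, and none of its 3 windows lies before that start. Capitals mark exact matches to the decamer consensus of p53, which reads the same on both strands.
Phlda3: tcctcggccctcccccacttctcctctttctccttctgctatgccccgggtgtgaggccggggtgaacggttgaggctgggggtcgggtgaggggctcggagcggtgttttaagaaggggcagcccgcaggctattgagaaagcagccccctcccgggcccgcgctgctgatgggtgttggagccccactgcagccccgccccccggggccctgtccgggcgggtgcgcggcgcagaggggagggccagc
Bbc3: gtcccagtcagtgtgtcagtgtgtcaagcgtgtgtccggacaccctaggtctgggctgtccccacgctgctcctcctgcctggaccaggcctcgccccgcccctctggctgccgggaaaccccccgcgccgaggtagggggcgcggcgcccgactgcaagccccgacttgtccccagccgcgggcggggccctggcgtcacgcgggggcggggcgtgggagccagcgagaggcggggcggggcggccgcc
Cdkn1a: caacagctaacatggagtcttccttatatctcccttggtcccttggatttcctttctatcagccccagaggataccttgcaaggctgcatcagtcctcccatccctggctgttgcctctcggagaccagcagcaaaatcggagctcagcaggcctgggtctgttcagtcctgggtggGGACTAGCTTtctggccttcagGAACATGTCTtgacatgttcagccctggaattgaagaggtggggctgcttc

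The Cdkn1a window holds 2 exact decamers, beginning at -73 and -51 from the start. A pair with a spacer of 0 to 13 bases lay in 0.0639% of all windows. The second decamer is followed directly by the near match tgacatgttc, which the search did not count. No exact match lies in the other window of Cdkn1a, in the window of Phlda3 or in the 3 windows of Bbc3. The windows shown for Phlda3 and Bbc3 have 71.2% and 76.4% GC with 18 and 27 CG dinucleotides, and that for Cdkn1a 54.0% with 2. The other Cdkn1a window has 64.8% GC with 19 CG dinucleotides. Of all 38 windows of the 27 genes found in the table, 8 hold a decamer. They are windows of Cdkn1a, Bax, Mdm2, Ccng1, Gadd45a, Trp53, Bmf and Nlrp3. Over all 32851 windows of the same length the share is 7.13%. A match is a run of letters and not a measured binding site. Only exact matches were sought, so near matches stayed unmarked, such as cgacttgtcc in the shown Bbc3 window. A window without a match therefore says nothing of imperfect sites inside it or of more distant sites.

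Of 94 further cell death genes in 7 lists, 71 were tested and none passed the threshold. At a limma unadjusted p below 0.05, 2 were higher and 1 was lower in triple-deficient libraries, which is 4.23% of the 71 against 5.09% of all genes tested. The median log2 change was 0.03 over the 71. Medians by list ran from -0.04 for 7 other BCL2 family genes to 0.10 for 4 genes of the IAP family, the caspase inhibitors.

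Endog, a mitochondrial endonuclease released in apoptosis, had the smallest p of the 71. It lies on chromosome 2 (30171408 to 30174069) and was at 6.87, 5.85 and 6.55 FPKM in the controls against 4.68, 3.44 and 2.25 FPKM in triple-deficient libraries. Every triple-deficient value was under the lowest control value, with a log2 change of -0.77 (SE 0.177, 95% interval -1.18 to -0.36, limma unadjusted p = 0.00230, adjusted p = 0.633). Endog too is rich in GC, at 64.3%, and its change was -0.56 without triple-deficient 3 (limma unadjusted p = 0.00177, adjusted p = 0.446) and -0.61 with the GC trend removed.

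Xiap, the main direct inhibitor of caspases, was higher in every triple-deficient library, at 57.1, 56.6 and 58.1 FPKM in the controls against 60.9, 63.8 and 67.1 FPKM in triple-deficient libraries (log2 change 0.15, SE 0.0483, limma unadjusted p = 0.0121, adjusted p = 0.836). Its transcript has 36.8% GC, and its change stayed between 0.10 and 0.19 in all 18 alternatives. The value of 0.10 was that with the GC trend removed (limma unadjusted p = 0.0222). For Birc2 and Birc6 of the same family the groups overlapped, with changes of 0.11 and 0.09 (limma unadjusted p = 0.147 and 0.181) that ran from 0.05 to 0.17 and from 0.03 to 0.14 when 1 library was left out. Capn1, a calcium-activated protease, was at 3.04, 3.00 and 2.98 FPKM in the controls against 3.40, 3.75 and 3.72 FPKM in triple-deficient libraries. Its groups did not overlap either (log2 change 0.21, SE 0.0677, limma unadjusted p = 0.0153, adjusted p = 0.861). Cast, its inhibitor calpastatin, was at 2.87 ± 0.0556 and 3.10 ± 0.271 FPKM (SD, n = 3).

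No other gene of the 71 had an unadjusted p below 0.05. Among 26 tested genes of the wider p53 pathway the smallest p-values were those of Tigar, a regulator of glycolysis (10.9 ± 0.323 and 12.1 ± 1.02 FPKM), of Pidd1, a scaffold for caspase-2 (1.24 ± 0.0836 and 0.986 ± 0.164 FPKM), and of the checkpoint kinase Chek2 (0.491 ± 0.0665 and 0.676 ± 0.163 FPKM; SD, n = 3 throughout). Hrk, a neuronal BH3-only gene, was at 2.52 ± 0.254 and 2.14 ± 0.199 FPKM, and Diablo, which relieves caspases of Xiap, at 23.8 ± 2.11 and 21.6 ± 0.724 FPKM. For Sharpin, of the linear ubiquitin ligase complex, the values were 21.5 ± 0.912 and 19.9 ± 0.620 FPKM, and for Aim2, a DNA sensor, 0.564 ± 0.161 and 0.804 ± 0.161 FPKM. None of these 7 genes had a limma adjusted p below 0.943.

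**Figure D5:**
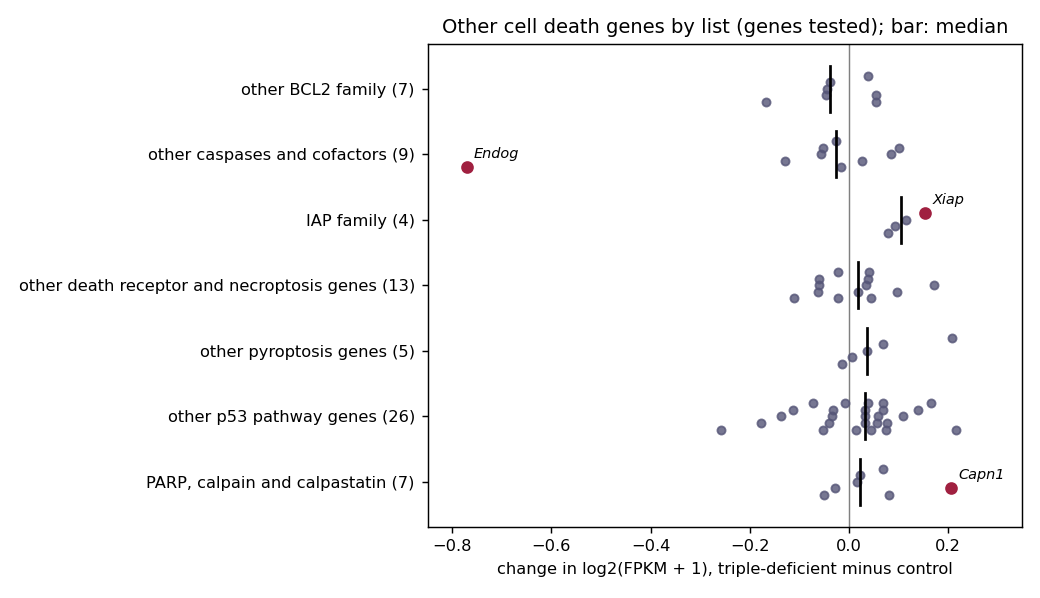
Change in log2(FPKM + 1), triple-deficient minus control, of the 71 tested genes of 7 further cell death lists, with the median of each list as a black bar. Endog at -0.77, Xiap at 0.15 and Capn1 at 0.21, in red, are the 3 genes with an unadjusted p below 0.05.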

How the data were processed

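RNA from freshly isolated retinas was made into libraries with a stranded mRNA kit, per the labels' protocols. The authors deposited 1 table of FPKM values per library. The submitters' processing notes list TopHat2 2.1.1, Bowtie2 2.3.5.1, Cufflinks 2.2.1, Cuffdiff and the build mm10, without roles or settings. Which annotation was used, whether counting used strand and how libraries were scaled were not given in the sources used here. Exons of Bak1, Bcl2, Bid, Casp9, Cdkn1a, Gadd45a and Ripk1 overlap genes on the opposite strand, and those of Bax, Parp1 and Ripk1 genes on the same strand, so their values are uncertain to that extent.

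FPKM were used as deposited and were tested two-sided on log2(FPKM + 1) with limma 3.58.1 under R 4.3.3, its variance prior following the mean. Changes on this scale understate those of low genes. The model had no covariate. The test was checked on simulated data. Depth was estimated from low values that are whole multiples of 1 fragment (60 genes with 1 transcript of at least 2000 bases). Fragments per gene are estimates from FPKM, depth and transcript length. GC content came from the longest GENCODE M21 transcript, known for 99.2% of genes tested, and coordinates from RefSeq GRCm38.p6. Alternatives covered the pseudocount, filter, trend, shrinkage, weights, scaling, replicate number, GC content and each library left out.

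The members and lists were chosen with earlier results of these data known. Named are all 30 members, the 3 genes of each further list with the smallest p where they bear on the text, and the targeted genes.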

Additional observations from a re-analysis of the deposited data

How the results depend on the processing

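None of the 30 genes passed the threshold in any of the 18 alternatives, and the smallest adjusted p any of them reached was 0.394, for Bbc3 without triple-deficient 1. Over all genes 4 passed, 2 with no filter on low values and 2 with robust shrinkage, and 3 to 11 when 1 library was left out (7 without control 3, 10 without triple-deficient 1, 11 without triple-deficient 3). Of the 22 genes, 2 had an unadjusted p below 0.05, against 1 with the GC trend removed. When 1 library was left out 0 to 3 did (0 without control 1, 1 without control 3, triple-deficient 2 or triple-deficient 3). Casp8, higher in triple-deficient libraries, had a limma unadjusted p of 0.0409 with no filter on low values and 0.0334 without the variance trend. Bmf, also higher, had a limma unadjusted p of 0.0440 with weighted libraries. The changes of 14 of the 22 genes kept their sign in every alternative that gave a value. The other 8 (Bax, Bak1, Bcl2l11, Mcl1, Apaf1, Gsdmd, Trp53 and Parp1) changed sign in 2 to 5 alternatives, between -0.14 and 0.08. With a minimum of 1 FPKM, Casp8, Tnfrsf10b and Gsdmd were not tested.

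Control and triple-deficient libraries share the numbers 1 to 3, and the design text speaks of littermate pairs without tying them to the numbers. Deviations of same-numbered libraries correlated at 0.0219, 0.114 and 0.0667, and those of differently numbered libraries at -0.195 to 0.12. The same-numbered values lay inside that range, and the numbers were not taken as pairs. With the replicate number as a block 4 genes passed over all genes, and 0 of the 30; 2 of the 22 had an unadjusted p below 0.05, in the block fit with the GC trend removed as well.

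Depth limits the 8 genes below the filter, at an estimated 0 to 35.6 fragments per library.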

Other observations

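Libraries differed in how often they held the extreme value of a gene. Control 2 was the lowest of the 6 libraries for 9 of the 22 tested genes, against 14.3% of all genes tested. Triple-deficient 3 was the lowest for 5 of the 22 and the highest for 7, against 26.4% and 26.7% of all genes tested, the largest shares of any library in each direction.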
